A study of Mus musculus with 13 samples.

Results

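Liver-resident NK cells (LrNK) were compared with conventional NK cells (cNK) in mice labelled CD8KO, across all genes counted. The libraries were chosen by their labels: 6 of the 13 RNA-seq libraries of the series carry the genotype label CD8KO, 3 of LrNK and 3 of cNK. All 6 came from C57BL/6J mice of 8 to 10 weeks. The labels give the LrNK libraries as liver lymphocytes and the cNK libraries as splenocytes, so the cell type and the organ cannot be told apart in any value below. NK cells were sorted by flow cytometry. The labels do not state the gates, the sex of the animals, the deleted part of the CD8 locus or whether a library is 1 animal or a pool. The other 7 libraries, labelled B6 and called WT here (4 of LrNK, 3 of cNK), enter only where the same contrast is set beside the CD8KO one. The title of the series names CD8+ T cells, maturation of LrNK cells and CD70 with CD27, and this contrast gives the resident and conventional cells side by side where the label says that CD8 is missing.

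NK cells are innate lymphocytes that kill by releasing perforin and granzymes and by death ligands such as TRAIL, and that secrete interferon gamma and chemokines. Conventional NK cells circulate through blood and spleen, depend on the T-box factor Eomes for their maturation, and carry CD49b, CD11b, KLRG1 and inhibitory Ly49 receptors for MHC class I as they mature. Liver-resident NK cells, often grouped with type 1 innate lymphoid cells, stay in the liver sinusoids, carry CD49a, CXCR6 and TRAIL, and use T-bet and Hobit rather than Eomes.

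Library totals, in units of 1000000 counts, were 35.9, 47.7 and 41.8 for LrNK and 48.6, 59.7 and 57.2 for cNK. LrNK library 1 stood apart: it held counts for 15797 genes, while the other LrNK libraries held 22921 and 22670 and the cNK libraries 22287 to 22606. LrNK libraries 2 and 3 agreed far more closely than any other pair (chi-square per degree of freedom 2.67 between them, 265 and 255 against library 1, and 8.92 to 13.7 among cNK libraries). They were summed and counted as 1 sample, so LrNK has 2 samples and cNK 3. CPM below are counts divided by the sample's total and scaled to 1000000, given for LrNK library 1 first, then for LrNK libraries 2 and 3 together, then for cNK libraries 1, 2 and 3. Nothing in the labels says that libraries are separate animals, so p-values measure the spread between these samples, which may be technical.

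Cd8a, which encodes the CD8 alpha chain, was counted in every one of these libraries. Its level was 41.6 and 43.7 CPM in the LrNK samples against 87.3, 85.9 and 109 CPM in the cNK libraries, while WT cNK libraries held 0.568, 0.578 and 0.561 CPM. Cd8a was thus not absent from the CD8KO-labelled libraries, and in cNK it was higher there than in WT. Cd8b1, the partner chain, was at 0 and 0.548 CPM in LrNK and at 0.0838 to 0.280 CPM in cNK, too low to check the label. The count covers the whole gene and the deleted part is not known here, so this checks transcripts and not the protein. The libraries are therefore called by their label throughout.

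Of 17795 genes tested, 2735 were higher in LrNK (15.4% of those tested) and 2069 were lower (11.6%) at an adjusted p under 0.05, by edgeR's quasi-likelihood test on counts. A further description without a test is the number of genes with both LrNK samples above all 3 cNK libraries, 4143 (23.3%), or below them, 6828 (38.4%). All called genes were among these. The median log2 change over all genes tested was -0.05. It was 2.49 among the genes called higher and -0.99 among those called lower, so the rises were the larger in size. Among called genes, 169 of those higher had no count in any cNK library and 104 of those lower had none in any LrNK library. Protein-coding genes made up 13195 of the genes tested, of which 2479 rose and 1826 fell.

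**Figure D1:**
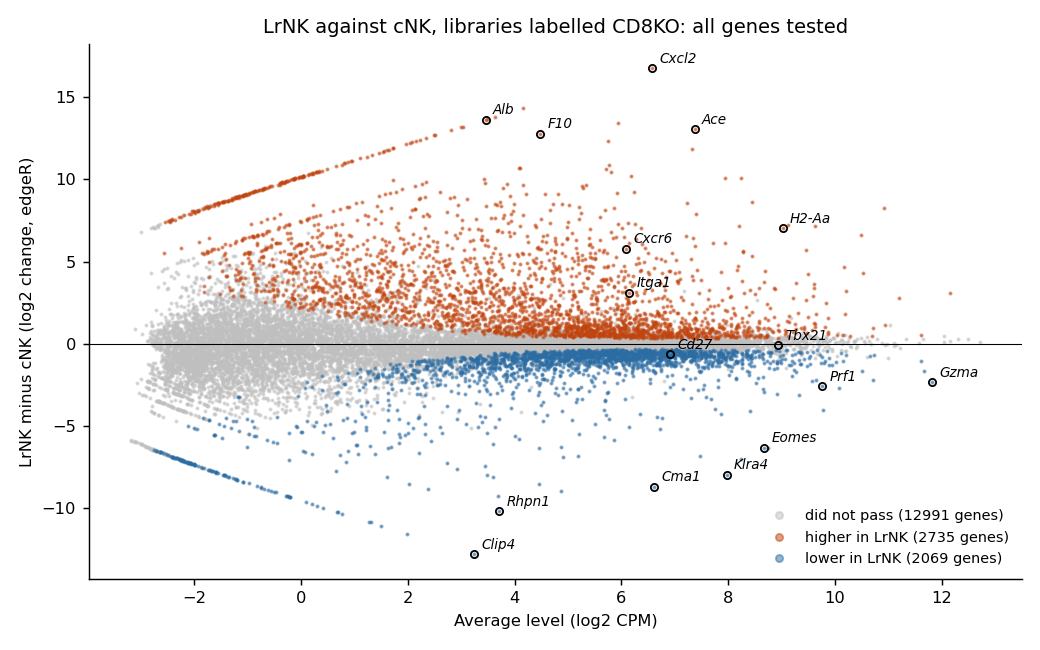
Log2 change of LrNK against cNK (vertical axis) by average level in log2 CPM (horizontal axis) for each gene tested in the libraries labelled CD8KO, coloured by call. Named genes are ringed; Cxcl2 sits at the top at 16.75 and Clip4 at the bottom at -12.81, and the outermost diagonal rows at the left are genes without a count in 1 of the groups.

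The call counts depend on the libraries. The LrNK samples differed from each other far more than the cNK libraries did: among genes with a mean level of 2 or more in log2 CPM, 14.9% were over 2-fold apart between them, against 0.780 to 0.983% between any pair of cNK libraries. The fit gives both groups 1 spread, with a biological coefficient of variation of 42%, while that of LrNK alone was 88.4% and that of cNK alone 10.2%. Leaving out a cNK library, any of the 3, left 1116 to 1179 higher and 572 to 624 lower, and leaving out LrNK library 1 gave 5742 and 5130. No called gene had the opposite sign in any of the settings run. Without LrNK library 1, or with it alone, LrNK is 1 sample. Calls in those fits rest on the spread of the cNK libraries and do not measure that of LrNK. Keeping LrNK libraries 2 and 3 apart counts 2 closely agreeing libraries as separate samples. The fits tested 17117 to 17453 genes without a cNK library and 19586 without LrNK library 1, so list counts below stand beside the counts above. Of the 4804 called genes, 2653 were over 2-fold from the mean of cNK in both LrNK samples in the same direction, and 1060 were over 2-fold apart between the LrNK samples.

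**Figure D2:**
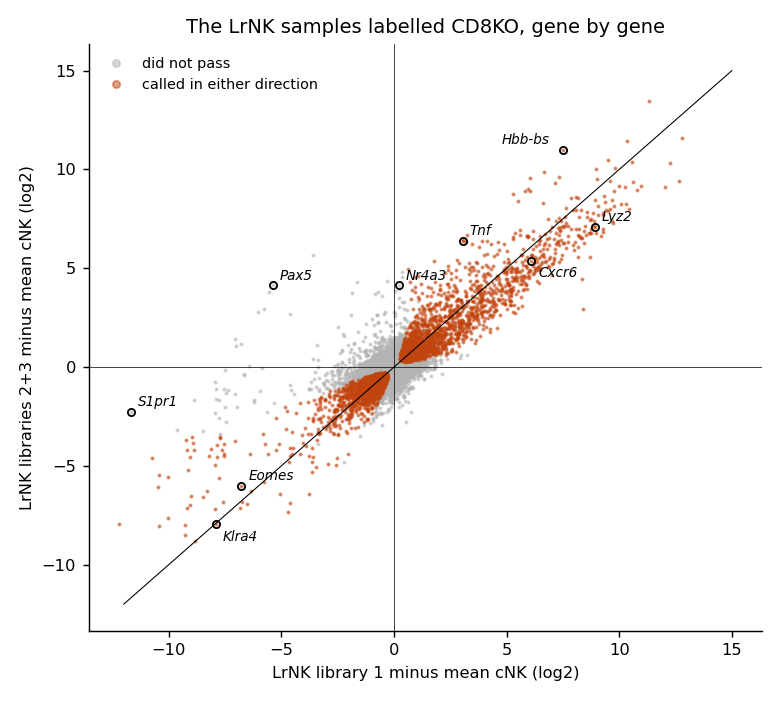
Log2 change against the mean of cNK for LrNK library 1 (horizontal axis) and for LrNK libraries 2 and 3 together (vertical axis), for genes with a mean level of 2 or more in log2 CPM. Points on the diagonal line changed alike in both samples, as Eomes and Cxcr6 nearly did; S1pr1, Pax5 and Nr4a3 lie far from it.

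Markers of the labelled cell types went with the labels. All 6 LrNK markers chosen (Itga1, Cxcr6, Cd200r1, Tnfsf10, Il7r, Zfp683) were higher in LrNK, and the cNK markers Itga2, Eomes, S1pr5 and Itgam were lower. Itga1, which encodes the collagen-binding integrin CD49a, was at 149 and 137 CPM in the LrNK samples against 17, 19.3 and 18.1 CPM in the cNK libraries (log2 change 3.10 ± 0.10 (SE), adjusted p = 0.000123). Both LrNK samples were about alike and stood 7.87 times above cNK in their means, 143 ± 8.83 CPM (SD, n = 2) in LrNK and 18.2 ± 1.17 (SD, n = 3) in cNK. Cxcr6, the receptor for CXCL16 on liver sinusoids, was at 203 and 115 CPM in the LrNK samples against 3.31, 3.44 and 2.67 CPM in the cNK libraries (log2 change 5.77 ± 0.27 (SE), adjusted p = 0.000292). Library 1 was the higher of the LrNK samples, and both were far above every cNK library. Zfp683, which encodes the residency factor Hobit, was at 191 and 211 against 3.19, 5.56 and 3.06 CPM (log2 change 5.80 ± 0.32 (SE), adjusted p = 0.000425).

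Tnfsf10 (TRAIL) was at 244 and 201 against 34.2, 32.1 and 29 CPM (log2 change 2.93 ± 0.12 (SE), adjusted p = 0.000222), and Cd200r1, an inhibitory receptor of resident cells, at 91.5 and 54.3 against 3.54, 4.91 and 5.22 CPM (log2 change 4.11 ± 0.27 (SE), adjusted p = 0.000675). The groups did not overlap for either gene. Il7r, the IL-7 receptor chain, rose least of the 6, from 41.4 to 56.2 CPM in cNK to 93.2 and 69.7 in LrNK (log2 change 0.85 ± 0.17 (SE), adjusted p = 0.0199). Its call was lost without any of the 3 cNK libraries (adjusted p = 0.0522 to 0.0937) and with voom (0.0955).

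Among cNK markers, Eomes was at 6.04 and 9.62 CPM in the LrNK samples against 703, 690.3 and 703 CPM in the cNK libraries (log2 change -6.33 ± 0.30 (SE), adjusted p = 0.0003). The groups lay far apart, with a mean 89.2 times lower in LrNK. Itga2, which encodes CD49b, was at 16.5 and 20.2 against 385, 379 and 403 CPM (log2 change -4.27 ± 0.17 (SE), adjusted p = 0.000196). S1pr5, a sphingosine-1-phosphate receptor that lets NK cells leave tissue, was at 39.5 and 21.8 against 605, 537 and 544 CPM (log2 change -4.09 ± 0.28 (SE), adjusted p = 0.000762).

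Itgam, which encodes CD11b, was at 84 and 51.4 against 211, 197 and 223 CPM (log2 change -1.52 ± 0.20 (SE), adjusted p = 0.00509). Klf2, a factor that drives egress receptors, was at 296 and 421 against 622, 651 and 608 CPM and did not pass (log2 change -0.67 ± 0.20 (SE), adjusted p = 0.0552), although both LrNK samples lay under every cNK library. It passed, in the same direction, with no filter on low counts (0.029), DESeq2 (0.00777), voom (0.0277) and without LrNK library 2 (0.0442). It also passed with libraries 2 and 3 kept apart (0.0349), which counts 2 closely agreeing libraries as separate samples. The log2 change was -0.41 without LrNK library 1 and -1.04 with library 1 alone, each with 1 LrNK sample.

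**Figure D3:**
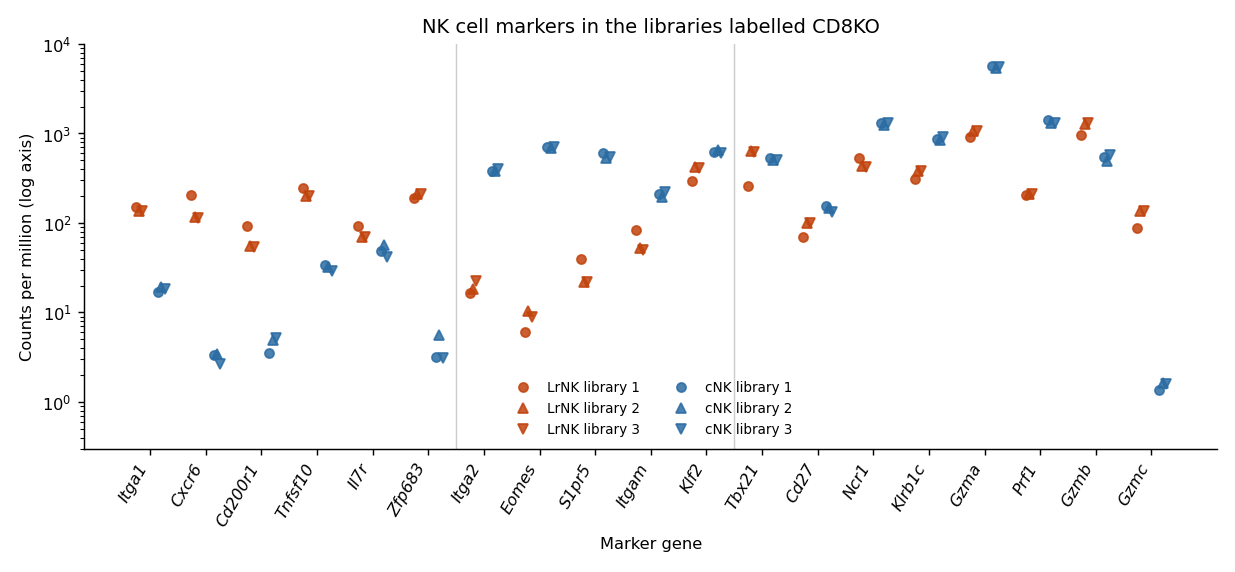
CPM on a log axis for 19 marker genes in each of the 6 libraries labelled CD8KO, with LrNK in orange and cNK in blue. The first block of LrNK markers is higher in LrNK and the second of cNK markers is lower in every LrNK library; in the third block Tbx21 overlaps between the groups.

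The longer lists of the same signatures moved with the markers, and their members were chosen with earlier results of these data known. Counts of list members called here and below stand beside 15.4% higher and 11.6% lower among all genes tested. Of 28 liver-resident genes tested, 24 rose and 2 fell, with a median log2 change of 3.08. Inpp4b, a lipid phosphatase, was at 114 and 111 against 7.7, 7.93 and 9.09 CPM (log2 change 3.90 ± 0.12 (SE), adjusted p = 0.00011). The residency-linked G-protein regulators Rgs1 (1092 and 2049 against 89.2, 88.8 and 101 CPM) and Rgs2 (649 and 1245 against 100.4, 96.4 and 97.7 CPM) rose by 4.22 and 3.41 on the log2 scale. The genes that fell were Kit, the stem cell factor receptor (45.4 and 37.8 against 84, 80.4 and 76.8 CPM), and Prdm1, which encodes Blimp-1, a factor of both terminal maturation and tissue residency. Prdm1 was at 26.7 and 38.2 against 86, 88.4 and 92.2 CPM (log2 change -1.32 ± 0.20 (SE), adjusted p = 0.00802), with the groups fully apart. Its call was lost without cNK library 3 (adjusted p = 0.0507).

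Of 20 conventional NK genes tested, 11 fell and 1 rose, with a median of -1.43, with 8 to 9 lower when a cNK library was left out and 19 lower without LrNK library 1. Cma1, a mast cell and NK cell chymase, was at 0 and 0.57 against 168, 169.7 and 167 CPM (log2 change -8.69 ± 0.82 (SE), adjusted p = 0.00182). Serpinb9b, a granzyme inhibitor, was at 0 and 0.939 against 42.7, 48.2 and 58.1 CPM (log2 change -6.31). The gene that rose was Cd34 (9.22 and 3.19 against 0.206, 0.067 and 0.21 CPM), a progenitor and endothelial surface protein. Cx3cr1, the fractalkine receptor, overlapped between the groups at 215 and 46.1 against 70.5, 71.4 and 74.6 CPM.

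Terminal maturation genes fell more often than they rose. Of 17 tested, 7 fell and 3 rose, with a median of -0.22. The share that rose was near the 15.4% called higher among all genes tested. Klrg1, an inhibitory receptor of mature NK cells, was at 0.891 and 7.46 CPM in the LrNK samples against 179.9, 175 and 185 CPM in the cNK libraries (log2 change -5.20 ± 0.90 (SE), adjusted p = 0.0121). LrNK library 1 was near 0 and the summed libraries were still over 20 times lower than cNK. The log2 change was -4.43 without library 1, and the call was lost without any of the 3 cNK libraries (adjusted p = 0.0547 to 0.0595). Spn, which encodes the sialoglycoprotein CD43, was at 533 and 482 against 1357, 1287 and 1332 CPM (log2 change -1.26).

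The genes that rose were Gzmb, Serpina3g and Irf2, at log2 changes of 1.18, 0.99 and 0.44. Serpina3g encodes a serine protease inhibitor and Irf2 an interferon regulatory factor. With any cNK library out, 1 to 2 of this list rose and 5 to 6 fell, beside 1116 to 1179 and 572 to 624 of all genes. Zeb2, a repressor needed for terminal maturation, was at 179.9 and 115 against 210, 186 and 222 CPM and did not pass (log2 change -0.37, adjusted p = 0.206). Without LrNK library 1, which leaves 1 LrNK sample, its log2 change was -0.69. Of 17 immature and memory-like genes, 7 rose and 5 fell. Id3, an inhibitor of E-proteins, was at 79.3 and 185 against 1.69, 1.81 and 1.63 CPM (log2 change 6.42 ± 0.44 (SE), adjusted p = 0.000775), and Cd24a, a surface marker of immature lymphocytes, at 13 and 18.2 against 0.658, 0.436 and 1.29 CPM (log2 change 4.43 ± 0.51 (SE), adjusted p = 0.00335). Tcf7, which encodes TCF-1, fell, at 106 and 150.2 against 380.3, 393 and 339.7 CPM (log2 change -1.40 ± 0.21 (SE), adjusted p = 0.00728). On any pair of cNK libraries 3 to 4 of the immature genes rose and 2 to 3 fell.

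Cd27, the TNF-family costimulatory receptor named in the title, was at 69.5 and 98.9 CPM in the LrNK samples against 155, 147 and 134 CPM in the cNK libraries (log2 change -0.65 ± 0.20 (SE), adjusted p = 0.0659). Both LrNK samples lay under all 3 cNK libraries, but the difference did not pass. It passed, in the same direction, with all 4 groups in 1 model (adjusted p = 0.0363), with no filter on low counts (0.0347) and with DESeq2 (0.0163). It also passed with libraries 2 and 3 kept apart (0.044), which counts 2 closely agreeing libraries as separate samples. The log2 change was -0.39 without LrNK library 1 and -1.02 with that library alone against cNK, each with 1 LrNK sample. Cd70, its ligand, was not tested, at 0 and 0.201 CPM in LrNK and 0.0823, 0 and 0 in cNK.

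Of the 24 genes of the CD27 and TNF receptor list tested, 14 rose and 1 (Traf6, a signalling adaptor) fell, with a median of 0.88. Without a cNK library 7 to 8 rose and 0 fell, and without LrNK library 1 16 rose and 3 fell. Tnfrsf25, the receptor for TL1A, was at 29.6 and 29.4 against 4.75, 6.2 and 6.29 CPM (log2 change 2.49 ± 0.18 (SE), adjusted p = 0.000845). Ltbr, the lymphotoxin beta receptor, was at 70.3 and 33.2 against 1.4, 1.54 and 2.43 CPM (log2 change 4.96 ± 0.40 (SE), adjusted p = 0.00118), and without LrNK library 1 at a log2 change of 4.37. Ltbr is known for expression on myeloid and stromal cells, whose marker lists are given below. The NF-kappa-B feedback gene Tnfaip3, which encodes A20, was at 903 and 5460 against 170.4, 194 and 179.5 CPM (log2 change 4.30), about 6 times higher in the summed libraries than in library 1.

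Ly49 receptors are C-type lectins of the Klra cluster on chromosome 6 that read MHC class I on other cells, most of them inhibitory and a few activating. Of 12 Klra genes tested, 9 fell and 3 rose, with a median log2 change of -3.66. This was the lowest median of the 37 lists. Klra4 (Ly49D, activating, chr6:130043731-130067271) was at 1.67 and 1.5 CPM in the LrNK samples against 444, 392 and 462 CPM in the cNK libraries (log2 change -7.97 ± 0.16 (SE), adjusted p = 8.61e-05). Its mean was 273 times lower in LrNK. Klra8 (Ly49H, the activating receptor for a mouse cytomegalovirus protein, chr6:130115226-130129898) was at 4.26 and 3.24 against 559, 444 and 557 CPM (log2 change -7.00 ± 0.22 (SE), adjusted p = 0.000118), 139 times lower. LrNK held fewer than 5 CPM of either gene in both samples.

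The inhibitory members Klra3 (6.99 and 7.02 against 168, 157 and 182 CPM), Klra7 (22.3 and 19.7 against 349, 334 and 391 CPM), Klra9 (29.8 and 29.4 against 343, 313 and 331 CPM) and Klra1 (8.19 and 8.49 against 61.2, 62.1 and 76.1 CPM) fell by log2 changes of -4.47, -3.97, -3.35 and -2.87. The members that rose were Klra2, Klra17 and Klra5. Klra5 was at 38 and 27.4 against 11.7, 13.2 and 11.8 CPM (log2 change 1.54 ± 0.16 (SE), adjusted p = 0.0026), and Klra2, which myeloid cells are known to express, was at 119 and 31.2 against 0.741, 1.06 and 1.01 CPM (log2 change 6.41). With 1 cNK library fewer, 8 fell and 2 rose.

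Klra genes are near copies, and reads of one member can be counted for another. The promoters of the 2 members that fell furthest are shown because they carry this likeness at the start of the gene. They run from 250 bases before to 50 bases after the start, from RefSeq on GRCm38.p6: Klra4 at chr6:130067222-130067521, minus strand, and Klra8 at chr6:130129849-130130148, minus strand. The capitals mark the longest run of letters the promoters share, 37 bases, and the promoters are 86% identical over 301 aligned columns.
Klra4: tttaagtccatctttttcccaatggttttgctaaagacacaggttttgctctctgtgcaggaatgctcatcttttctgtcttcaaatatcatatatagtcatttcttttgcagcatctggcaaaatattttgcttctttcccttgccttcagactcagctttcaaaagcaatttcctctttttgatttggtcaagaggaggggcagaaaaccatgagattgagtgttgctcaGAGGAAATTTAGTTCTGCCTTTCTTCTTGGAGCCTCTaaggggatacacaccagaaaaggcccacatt
Klra8: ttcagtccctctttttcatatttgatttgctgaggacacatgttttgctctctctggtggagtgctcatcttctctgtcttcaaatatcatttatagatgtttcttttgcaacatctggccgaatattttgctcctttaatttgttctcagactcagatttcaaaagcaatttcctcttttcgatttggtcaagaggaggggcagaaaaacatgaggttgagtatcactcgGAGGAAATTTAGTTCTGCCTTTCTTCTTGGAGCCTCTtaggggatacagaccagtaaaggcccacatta

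Of 21 activating and costimulatory receptors tested, 12 fell and 2 rose, with a median of -0.76, and 13 fell and 4 rose without LrNK library 1. Ncr1, which encodes NKp46, was at 533 and 427 CPM in the LrNK samples against 1295, 1247 and 1324 CPM in the cNK libraries (log2 change -1.30 ± 0.11 (SE), adjusted p = 0.00155), and Klrb1c, which encodes NK1.1, at 308 and 384 against 877, 854 and 904 CPM (log2 change -1.21 ± 0.15 (SE), adjusted p = 0.00442). Both NK-defining genes were thus lower in each LrNK sample, though both stayed well counted there. Klrc2, which encodes NKG2C, was at 128 and 140.2 against 551, 562 and 668 CPM (log2 change -2.02 ± 0.15 (SE), adjusted p = 0.000878), and Cd247, the signalling zeta chain, at 42.6 and 46.6 against 187, 174 and 177 CPM (log2 change -1.88 ± 0.12 (SE), adjusted p = 0.000675). In bulk libraries, fewer cells of a type and less RNA per cell cannot be told apart. The receptors that rose were Cd226 (DNAM-1, 159.8 and 131 against 66.8, 63.6 and 61.3 CPM) and Cd7 (749 and 926 against 388, 355 and 349 CPM).

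Inhibitory receptors and checkpoints went mostly the other way: 12 of 19 tested rose and 4 fell, with a median of 3.16. Lag3, a checkpoint receptor that binds MHC class II, was at 81.6 and 123 against 8.6, 9.47 and 11 CPM (log2 change 3.54). Pdcd1, which encodes PD-1, was at 10.9 and 4.998 CPM in LrNK and had no count in any cNK library, so it was at least 368-fold higher against a floor of 3 counts over the cNK group. Havcr2, which encodes TIM-3, was at 32.3 and 18.3 against 0.37, 0.285 and 0.612 CPM (log2 change 6.01). The receptors that fell were Klrg1, Klri2, Klre1 and Klri1. Klri2, a lectin of this list that pairs with Klre1, was at 88.2 and 83.5 against 617, 603 and 676 CPM (log2 change -2.76 ± 0.11 (SE), adjusted p = 0.000196). With any 1 cNK library left out, 11 to 12 rose and 2 fell.

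Cytotoxic genes split by member. Of 19 tested, 7 rose and 5 fell. Prf1, the pore-forming protein perforin, was at 205 and 209.7 CPM in the LrNK samples against 1404, 1312 and 1307 CPM in the cNK libraries (log2 change -2.57 ± 0.12 (SE), adjusted p = 0.000267), a 6.47-fold lower mean. Gzma was at 909 and 1074 against 5717, 5344 and 5508 CPM (log2 change -2.35 ± 0.15 (SE), adjusted p = 0.000647), 5.57 times lower in LrNK. Neither gene differed much between the LrNK samples. Gzmb, the caspase-activating granzyme, rose instead, at 955 and 1288 against 550.4, 495 and 577 CPM (log2 change 1.18 ± 0.18 (SE), adjusted p = 0.00774), with a call that was lost without cNK library 1 or 2 (adjusted p = 0.0553 and 0.0543).

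Gzmc was at 88 and 134 CPM in the LrNK samples against 1.36, 1.64 and 1.57 CPM in the cNK libraries (log2 change 6.32 ± 0.27 (SE), adjusted p = 0.000222), a mean 73 times higher in LrNK. Gzmk and Gzmm fell, at 0 and 0.447 against 7.04, 8.78 and 9.17 CPM and 3.48 and 2.09 against 26.1, 23 and 24.1 CPM. Granzymes C, B and the chymase Cma1 lie together in a cluster on chromosome 14, and 2 of these rose while the other fell. Nkg7, a granule membrane protein, was at 517 and 772 against 1494, 1496 and 1461 CPM (log2 change -1.07). On any pair of cNK libraries 4 to 5 of the list rose and 3 fell. DESeq2 gave 7 higher and 8 lower, and leaving out LrNK library 1 gave 9 and 11 of 21 tested.

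Among 40 transcription factors of NK cells and innate lymphoid cells, 16 rose and 10 fell, with a median of 0.14, and without a cNK library 8 rose and 3 to 4 fell. Tbx21, which encodes T-bet, was at 256 and 631 CPM in the LrNK samples against 538, 509 and 502 CPM in the cNK libraries. The LrNK samples lay on either side of cNK and it did not pass (log2 change -0.07 ± 0.39 (SE), adjusted p = 0.914). Without library 1 the log2 change was 0.45, and with library 1 alone it was -0.97, so the samples gave opposite signs. Each of these fits holds 1 LrNK sample. With libraries 2 and 3 kept apart the log2 change was 0.12 and did not pass. Ahr, the aryl hydrocarbon receptor, was at 76.3 and 87.7 against 5.7, 7.46 and 7.51 CPM (log2 change 3.70 ± 0.18 (SE), adjusted p = 0.00032). Other factors that rose were Nfil3 (204 and 178 against 56.4, 53.8 and 50.6 CPM), Maf (154 and 132 against 61.6, 61.9 and 57.6 CPM), Irf4 (19.8 and 27.6 against 2.45, 2.56 and 4.002 CPM) and Hlx (26.3 and 17.7 against 1.69, 2.36 and 1.85 CPM). Ikzf3, Smad3, Stat4 and Lef1 fell, at log2 changes of -1.17, -1.08, -1.20 and -1.74.

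Cytokine receptors moved in both directions. The IL-18 receptor chains fell together. Il18r1 was at 81.9 and 73.7 CPM in the LrNK samples against 628, 652 and 653 CPM in the cNK libraries (log2 change -2.93 ± 0.10 (SE), adjusted p = 0.000147), and Il18rap, its accessory chain, at 109 and 109 against 986, 1017 and 1078 CPM (log2 change -3.11 ± 0.11 (SE), adjusted p = 0.000164). Both LrNK samples were alike, and their means were 8.29 and 9.43 times under those of cNK. The IL-12 receptor chains moved apart, with Il12rb2 lower (55.2 and 49.5 against 129.6, 114 and 123 CPM) and Il12rb1 higher (76.8 and 105 against 43.8, 51.5 and 44.8 CPM), and Stat4, the factor IL-12 activates, was lower (64.3 and 64.1 against 159, 157 and 166 CPM). Over the 14 genes of this list 6 rose and 5 fell, and without a cNK library 3 and 4.

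Of 16 IL-2 and IL-15 signalling genes, 7 rose and 1 fell, with a median of 0.26. Cish was at 89.7 and 75 against 8.02, 8.35 and 8.49 CPM (log2 change 3.43 ± 0.11 (SE), adjusted p = 0.000123), and Socs3, an inhibitor of IL-6 family signalling, at 406 and 368 against 86.8, 96.6 and 78.3 CPM (log2 change 2.27 ± 0.12 (SE), adjusted p = 0.000424). Il2rb, the shared IL-2 and IL-15 receptor chain, did not pass, at 2441 and 3413 against 3103, 3189 and 3031 CPM (log2 change 0.05), while Il2ra rose, at 18.7 and 24.8 against 1.4, 1.99 and 2.01 CPM. The gene that fell was Jak1 (649 and 568 against 2119, 2079 and 1989 CPM). Without a cNK library 4 to 5 rose.

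In the TGF-beta list 7 of 17 genes rose and 2 fell. Tgfb1, the ligand, was at 582 and 521 against 178, 181 and 168 CPM (log2 change 1.77 ± 0.10 (SE), adjusted p = 0.000424). Thbs1, thrombospondin 1, which can activate latent TGF-beta and is made by platelets and myeloid cells, was at 78.1 and 103 against 0.123, 0.151 and 0.105 CPM (log2 change 9.59 ± 0.27 (SE), adjusted p = 0.000105). Smad3, a signal transducer, fell (157 and 231 against 428, 475 and 454 CPM), as did Smad4. The receptor Tgfbr2 did not pass, at 209 and 246 against 235, 245 and 224 CPM, and Tgfbr1 rose, at 146 and 94 against 48.2, 51.5 and 49.1 CPM. With 1 cNK library fewer, 4 rose and 0 fell, and without LrNK library 1 12 of 18 rose and 2 fell.

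Homing and adhesion genes moved in both directions. Of 19 chemokine and egress receptors 9 rose and 4 fell. Of these 5 and 4 were called without a cNK library, and without LrNK library 1 11 rose and 8 fell of 20. S1pr1, the main exit receptor of lymphocytes, was at 0 and 21.8 CPM in the LrNK samples against 124, 119 and 111 CPM in the cNK libraries. LrNK library 1 had no count, the summed libraries were about 5 times under cNK, and the difference did not pass (log2 change -3.23 ± 1.57 (SE), adjusted p = 0.192). Without library 1, which leaves 1 LrNK sample, the log2 change of S1pr1 was -2.28. Cd69, which antagonizes S1PR1 at the surface, was at 46.3 and 216 against 20.9, 23.6 and 23.2 CPM (log2 change 2.70 ± 0.62 (SE), adjusted p = 0.0277). Its log2 change was 3.42 without LrNK library 1, and the call was lost without any cNK library (adjusted p = 0.11 to 0.12).

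Ccr7, the receptor for lymph node chemokines, was at 9.94 and 63.9 against 0.782, 0.955 and 1.05 CPM (log2 change 5.47). Ccr1, a myeloid and lymphoid chemokine receptor, had no count in cNK and was at least 402-fold higher in LrNK, against the same floor. Of 16 integrins 3 rose and 6 fell. Itga4, the alpha 4 chain that binds VCAM-1, was at 293 and 193 against 1611, 1603 and 1834 CPM (log2 change -2.68), and Itgal, the LFA-1 chain, did not pass, at 2205 and 1881 against 2651, 2614 and 2634 CPM. Itgb3 rose, at 92.5 and 121 against 24.6, 29.98 and 23.6 CPM. With any 1 cNK library left out, 2 rose and 4 fell.

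Transcripts of other cells were higher in the LrNK samples, and these values stand beside every group above and below. All 21 hepatocyte genes tested rose, with a median log2 change of 8.58, or 6.12 with the 10 genes that had no cNK count set to their bound. Their summed level was 2591 and 1270 CPM in the LrNK samples and 115, 183 and 147 in the cNK libraries. Most of it was Apoe, which macrophages also make (2231 and 1121 against 111, 179 and 143 CPM). Hp, which neutrophils also make, was the next in LrNK (199 and 53.5 against 0.0823, 0.067 and 0.105 CPM), and without LrNK library 1 its log2 change was 9.43. Alb, the defining hepatocyte gene, was at 34.6 and 18 against 0, 0 and 0 CPM. On any pair of cNK libraries 6 of the 21 rose, and 13 of 23 with all 4 groups in 1 model.

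Myeloid genes were high and unequal between the LrNK samples. Summed Kupffer cell and macrophage markers were at 9353 and 2880 CPM in the LrNK samples and 426, 674 and 649 in the cNK libraries. Of 17 tested, 6 rose and 2 fell, with a median of 0.11. The genes that fell were the iron exporter Slc40a1 (12.7 and 2.25 against 54.9, 102 and 92.9 CPM) and the haemoglobin scavenger receptor Cd163 (6.01 and 1.98 against 11.4, 16.2 and 15.1 CPM), both known from macrophages of the splenic red pulp. Lyz2, the lysozyme of macrophages, monocytes and neutrophils, was at 7411 and 1962 CPM in the LrNK samples against 18.9, 15.6 and 14.3 CPM in the cNK libraries (log2 change 8.26 ± 0.63 (SE), adjusted p = 0.00101), and without LrNK library 1 its log2 change was 7.08. Clec4f, which defines Kupffer cells, was at 21 and 3.54 against 0, 0 and 0 CPM. Cd68, a lysosomal protein of macrophages, was at 195 and 125 against 10.9, 15.8 and 15.4 CPM (log2 change 3.63 ± 0.24 (SE), adjusted p = 0.000675). Without a cNK library 3 to 4 rose and 0 fell. Without LrNK library 1 7 rose and 7 fell and the median was -0.25, and it was also below 0 with voom (-0.02) and with LrNK libraries 2 and 3 kept apart, without (-0.0011) and with a replicate block (-0.04).

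Neutrophil and monocyte markers rose in 10 of 14 genes. Mmp9, a neutrophil and monocyte gelatinase, was at 163 and 181 against 0.226, 0.134 and 0.122 CPM (log2 change 10.19 ± 0.25 (SE), adjusted p = 9.84e-05), and Tlr2 at 113 and 108 against 2.49, 2.56 and 1.99 CPM (log2 change 5.68 ± 0.16 (SE), adjusted p = 0.000105). The neutrophil gene Ly6g was at 0 and 0.112 CPM in LrNK. Summed levels overlapped between the groups, at 1362 and 697 CPM in the LrNK samples and 751, 738 and 834 in the cNK libraries, with Ccr2 as the main contributor in cNK. With 1 cNK library fewer, 4 to 5 rose, and without LrNK library 1 13 of 15 rose and 1 fell.

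Dendritic cell and MHC class II genes rose in 12 of 15 genes with 1 lower, and their sums were 6163 and 4776 CPM in the LrNK samples and 877, 937 and 934 in the cNK libraries. H2-Ab1, an MHC class II beta chain that presents peptides to CD4+ T cells, was at 2056 and 1642 CPM in the LrNK samples against 13.5, 14.4 and 14.3 CPM in the cNK libraries (log2 change 7.16 ± 0.13 (SE), adjusted p = 8.61e-05). H2-Aa, the alpha chain it pairs with, was at 1448 and 1000.3 against 10.4, 10.7 and 9.75 CPM (log2 change 7.01 ± 0.18 (SE), adjusted p = 9.84e-05), and H2-Eb1 at 1495 and 1144 against 8.09, 9.28 and 10.9 CPM (log2 change 7.25). Both LrNK samples were over 90 times above every cNK library for H2-Aa and H2-Eb1. Cd74, the class II invariant chain, was at 3835 and 2888 against 32.6, 40.6 and 37 CPM (log2 change 6.63 ± 0.17 (SE), adjusted p = 9.84e-05), and Ciita, which switches on this group, at 190.4 and 115 against 1.07, 1.02 and 1.68 CPM (log2 change 7.03).

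The promoters of H2-Aa (chr17:34287774-34288073, minus strand) and H2-Eb1 (chr17:34305617-34305916, plus strand) are shown because class II genes are known to share an upstream control module that ends in a Y box. RefSeq letters on GRCm38.p6 are given for 250 bases before to 50 after the start, and capitals mark CTGATTGG, letters of the Y box. It was searched on both strands, and 1271 of 27025 genes with a promoter (4.70%) hold it. H2-Eb1 was chosen after its values were seen.
H2-Aa: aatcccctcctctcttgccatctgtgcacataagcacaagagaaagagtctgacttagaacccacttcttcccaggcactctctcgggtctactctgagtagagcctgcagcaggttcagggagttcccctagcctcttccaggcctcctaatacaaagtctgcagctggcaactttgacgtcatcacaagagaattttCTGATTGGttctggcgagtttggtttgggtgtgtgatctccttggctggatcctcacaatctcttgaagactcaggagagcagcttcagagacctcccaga
H2-Eb1: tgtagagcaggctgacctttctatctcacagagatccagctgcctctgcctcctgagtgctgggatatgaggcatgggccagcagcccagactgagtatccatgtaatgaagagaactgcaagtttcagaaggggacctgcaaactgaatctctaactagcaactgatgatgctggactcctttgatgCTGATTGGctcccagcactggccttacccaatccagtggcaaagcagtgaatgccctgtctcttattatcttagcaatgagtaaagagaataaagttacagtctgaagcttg
Of the genes named by rule that rose and had a promoter, 5 of 52 held the letters, and of those that fell 2 of 29. A match is a description of the letters and not a site.

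B cell markers differed mainly by library: the sum was 4294 and 3568 CPM in the LrNK samples and 399, 417 and 414 in the cNK libraries, and most of it in LrNK was Cd74. The defining genes Pax5 (0 and 23.2 against 1.62, 0.821 and 2.31 CPM) and Cd79a (0.668 and 40.2 against 2.12, 2.1 and 2.69 CPM) were near 0 in LrNK library 1, high in the summed libraries, and did not pass. Of 19 genes 4 rose and 1 fell, but 17 rose without LrNK library 1, 9 with DESeq2, 8 with voom and 2 to 3 without a cNK library. Igkc, the kappa light chain constant gene, was at 63.9 and 127 against 4.61, 3.65 and 3.72 CPM (log2 change 4.72 ± 0.36 (SE), adjusted p = 0.001). Plasma cell genes rose in 5 of 7, among them Igha, the IgA heavy chain (196 and 160.1 against 0.535, 0.0335 and 0.437 CPM), and Jchain (38.7 and 22.8 against 1.42, 0.587 and 0.734 CPM). With any 1 cNK library left out, 3 to 4 rose, and 8 of 9 without LrNK library 1.

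T cell genes rose in 9 of 17 and fell in 2, with sums of 994 and 1278 CPM in the LrNK samples and 766, 789 and 794 in the cNK libraries. Cd3g, a chain of the T cell receptor complex, was at 179 and 178 CPM in the LrNK samples against 17.8, 23.3 and 18.7 CPM in the cNK libraries (log2 change 3.29 ± 0.15 (SE), adjusted p = 0.000267). Cd3e (36.8 and 28 against 4.51, 5.21 and 5.47 CPM) and Trac (38.6 and 40.9 against 5.23, 7.16 and 6.66 CPM) rose as well, while Trdc, the delta chain constant gene that NK cells are known to transcribe, fell, at 20.9 and 17.7 against 97.6, 95.2 and 102 CPM (log2 change -2.23 ± 0.11 (SE), adjusted p = 0.000331). Leaving out LrNK library 1 gave 14 higher and 2 lower. Cd8a was the other gene that fell (log2 change -1.01 ± 0.15 (SE), adjusted p = 0.00681).

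Endothelial genes rose in 13 of 15, among them Flt1 (53 and 31.8 against 0.103, 0.0335 and 0.0349 CPM), a VEGF receptor, and Stab1 (25.7 and 23.3 against 0.206, 0.235 and 0.402 CPM), a sinusoidal scavenger receptor, and without a cNK library 3 to 5 rose. Stellate cell genes rose in 4 of 7: Col4a1, Col1a1, Pdgfrb and Sparc, and 1 rose without a cNK library and 2 with all 4 groups in 1 model. Leaving out LrNK library 1 gave 4 higher and 1 lower. Sparc was at 14.1 and 1.45 against 0.0412, 0.168 and 0.245 CPM (log2 change 5.73 ± 1.15 (SE), adjusted p = 0.0189), 3.38 on the log2 scale without LrNK library 1, and its call was lost without any cNK library (adjusted p = 0.0796 to 0.0921). Erythroid genes rose in 6 of 11 and were far higher in the summed libraries, with Hbb-bs, a beta globin, at 123 and 1268 against 0.35, 0.855 and 0.961 CPM (log2 change 10.06 ± 1.25 (SE), adjusted p = 0.00421), or 10.90 on the log2 scale without library 1, where 10 of 13 of the list rose.

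The part of these cells in the results on other gene groups was not tested. With all genes of the other-cell lists and antigen receptor segments removed before scaling and fit, 2646 genes were higher and 2038 lower.

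**Figure D4:**
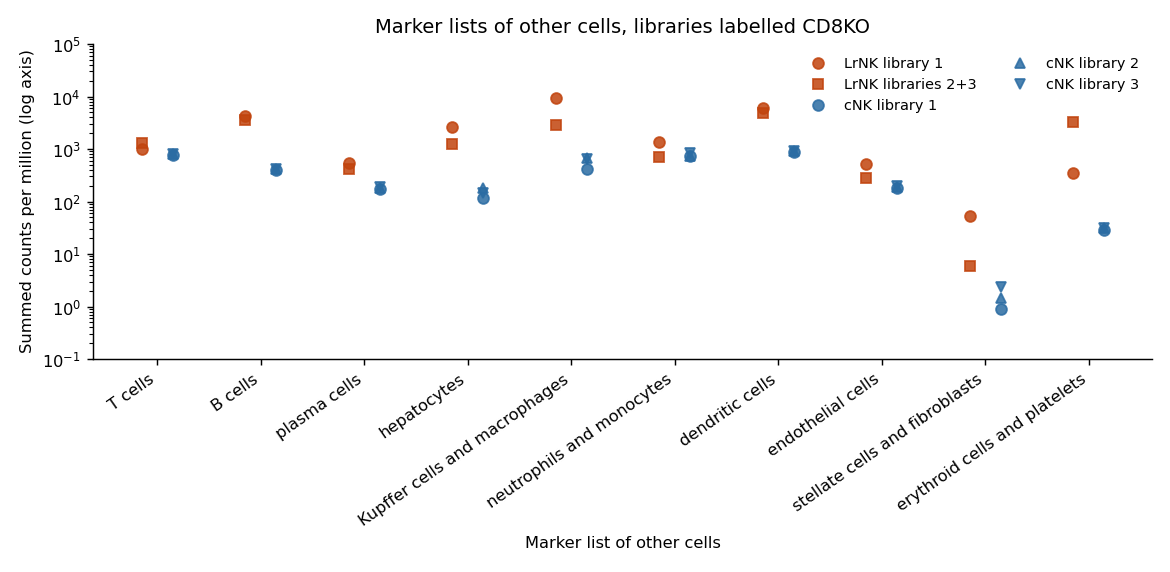
Summed CPM on a log axis of 10 marker lists of other cells, for the 2 LrNK samples and the 3 cNK libraries labelled CD8KO. LrNK lies above cNK in every list but that of neutrophils and monocytes, and the LrNK samples differ most from each other for erythroid and stellate cells.

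Immediate-early genes, which are transcribed within minutes of a stimulus, were higher in LrNK. Of 21 tested, 16 rose and 0 fell, with a median log2 change of 3.06. Their sums were 14100 and 36860 CPM in the LrNK samples and 3874, 3969 and 3519 in the cNK libraries. The summed libraries held over 2 times the level of library 1, and both exceeded every cNK library. Atf3, a stress-induced factor, was at 408 and 741 CPM in the LrNK samples against 0.782, 0.57 and 0.384 CPM in the cNK libraries (log2 change 10.10 ± 0.47 (SE), adjusted p = 0.000281). Ier3 was at 80.7 and 76.8 against 0.741, 0.855 and 0.769 CPM (log2 change 6.76 ± 0.14 (SE), adjusted p = 8.61e-05). Junb (4405 and 13690 against 1228, 1318 and 1067 CPM), Fos (1263 and 1415 against 262, 228 and 203 CPM), Egr1 (275 and 1283 against 20.9, 20.7 and 21.9 CPM) and Nr4a1 (796 and 2404 against 33.9, 34.9 and 31.9 CPM) rose too. Nr4a3 did not pass, at 37.6 and 532 against 36.4, 33 and 32.9 CPM, with library 1 at the level of cNK. On any pair of cNK libraries 9 rose.

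Cytokine and chemokine genes rose with them: 16 of 20 were higher and 2 lower, with a median of 3.11. Ifng, interferon gamma, was at 130.1 and 312 CPM in the LrNK samples against 89.1, 93.4 and 84.1 CPM in the cNK libraries (log2 change 1.46 ± 0.38 (SE), adjusted p = 0.0387). The summed libraries held over 2 times the level of library 1, and the call was lost without any cNK library (adjusted p = 0.13 to 0.149) and with all 4 groups in 1 model (0.0527). Tnf was at 38.1 and 364 against 4.55, 5.35 and 4.67 CPM (log2 change 5.54). Ccl3 (320 and 828 against 146, 124 and 132 CPM), Ccl4 (308 and 1063 against 81.6, 75.2 and 78 CPM) and Xcl1 (335 and 909 against 88.9, 80.4 and 78.5 CPM), chemokines of activated NK cells, rose. Ccl5 did not pass and was lower in both LrNK samples (946 and 1613 against 2585, 2602 and 2490 CPM). Cxcl9, an interferon-gamma-induced chemokine of myeloid and endothelial cells, was at 87.9 and 48.6 against 2.22, 1.49 and 1.15 CPM (log2 change 5.51 ± 0.38 (SE), adjusted p = 0.000781). Without a cNK library 8 to 9 rose and 0 fell.

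Cxcl2, a neutrophil chemokine that macrophages and monocytes make on stimulation, had the largest rise of all genes named by rule. It lies at chr5:90903871-90905938 and was at 88.3 and 355 CPM in the LrNK samples against 0, 0 and 0 CPM in the cNK libraries. It was at least 15350-fold higher in LrNK, with an adjusted p of 0.00742. The promoter of Cxcl2 (chr5:90903649-90903948, plus strand, RefSeq, GRCm38.p6) is shown because the gene is a known NF-kappa-B target. The feedback genes Nfkbia (483 and 1074 against 160.5, 168 and 148 CPM) and Tnfaip3 rose here, and a part of NF-kappa-B in these values was not tested. Capitals mark GGGAATTTC, letters of a kappa-B site, which was searched on both strands and is held by 83 of 27025 genes (0.307%), Cxcl9 among them. Of the genes named by rule that rose and had a promoter, 2 of 52 held these letters, and of those that fell 0 of 29. Such a match describes letters and is not a site.
Cxcl2: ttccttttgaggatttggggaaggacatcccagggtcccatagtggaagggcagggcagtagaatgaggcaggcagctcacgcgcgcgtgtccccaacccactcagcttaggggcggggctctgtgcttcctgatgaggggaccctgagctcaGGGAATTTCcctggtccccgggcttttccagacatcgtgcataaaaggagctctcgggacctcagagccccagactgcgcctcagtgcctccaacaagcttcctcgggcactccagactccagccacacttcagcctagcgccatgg

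Interferon-stimulated genes rose in 21 of 27 and fell in 0, with a median of 1.54. Rsad2, which encodes the antiviral enzyme viperin, was at 44.3 and 29 against 4.77, 5.3 and 4.26 CPM (log2 change 3.05 ± 0.21 (SE), adjusted p = 0.000798), and Isg20, an RNA exonuclease, at 33 and 21.3 against 2.1, 2.71 and 2.39 CPM (log2 change 3.61 ± 0.23 (SE), adjusted p = 0.000675). Oas2 (81.8 and 33.7 against 0.37, 0.486 and 1.01 CPM) and Oasl2 (134 and 47.1 against 5.1, 7.07 and 6.24 CPM) were both higher in library 1 than in the summed libraries, as the macrophage markers were. Ifit2 did not pass, at 73.7 and 38.5 against 46.3, 47.8 and 53.2 CPM. With 1 cNK library fewer, 15 to 16 rose, and without LrNK library 1 23 rose and 1 fell.

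Heat-shock chaperones rose in 9 of 15 and fell in 1. Hspa1a (104 and 46.1 against 1.19, 0.285 and 0.315 CPM) and Hspa1b (262 and 105 against 9.84, 2.95 and 2.83 CPM), stress-inducible near copies that can share reads, rose, and Hspa5, the chaperone of the endoplasmic reticulum, was at 1623 and 1324 against 566, 523 and 526 CPM (log2 change 1.57 ± 0.11 (SE), adjusted p = 0.000834). Hsp90aa1, the inducible HSP90, went the other way, at 25.1 and 22.3 against 276, 236 and 254 CPM (log2 change -3.31 ± 0.13 (SE), adjusted p = 0.000186), while its constitutive partner Hsp90ab1 rose (2233 and 2253 against 1400, 1182 and 1210 CPM). Among BCL-2 family genes 9 of 15 rose and 0 fell. Bcl2a1d, a survival gene with close copies, was at 50.7 and 62.2 against 1.63, 2.26 and 1.47 CPM (log2 change 5.11 ± 0.26 (SE), adjusted p = 0.000335), and Pmaip1, the pro-death gene NOXA, at 94.4 and 144 against 7.65, 6.65 and 9.93 CPM (log2 change 4.02 ± 0.28 (SE), adjusted p = 0.000798). Bcl2 itself did not pass (205 and 227 against 219.8, 239 and 242 CPM). With any 1 cNK library left out, 7 to 8 chaperones and 4 to 6 BCL-2 family genes rose. Without LrNK library 1 12 of 16 chaperones rose and 2 fell.

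Glycolysis genes rose in 13 of 20 and fell in 1, with a median of 0.68. Hk2, an inducible hexokinase, was at 82 and 81.2 against 1.85, 4.61 and 2.78 CPM (log2 change 4.85 ± 0.38 (SE), adjusted p = 0.00113), and Slc16a3, a lactate exporter, at 83.7 and 55.6 against 8.27, 9.6 and 6.97 CPM (log2 change 3.18 ± 0.22 (SE), adjusted p = 0.000762). Pfkp, the platelet form of phosphofructokinase, fell (174 and 143 against 416, 399 and 417 CPM). With edgeR 0 of 24 oxidative phosphorylation genes passed, with a median of 0.16 and 6 at an unadjusted p under 0.05. DESeq2 called 2 higher and 2 lower, beside 3631 and 3149 of all 17795 genes tested. Voom called 1 lower, beside 1080 of all genes. Ndufs1, a complex I subunit, was at 52.2 and 32.8 against 68.9, 71.4 and 74.1 CPM (log2 change -0.64 ± 0.18 (SE), adjusted p = 0.0532), and passed with DESeq2 (0.0114) and voom (0.0295). Its log2 change was -0.96 without LrNK library 1, with 1 LrNK sample. On any pair of cNK libraries 5 glycolysis genes rose.

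Of 30 ribosomal protein genes, 1 rose: Rps9, at 1472 and 1223 against 1019, 1034 and 923 CPM (log2 change 0.56 ± 0.11 (SE), adjusted p = 0.0193), a call lost without any cNK library (adjusted p = 0.0963 to 0.099) and with voom (0.0547). Other settings called more of them: 9 rose with DESeq2 and with libraries 2 and 3 kept apart, 6 with a minimum count of 50, and 17 rose and 4 fell without LrNK library 1. Of 26 cell cycle genes, Pcna rose (259 and 359 against 170.1, 164 and 161 CPM, log2 change 1.04 ± 0.18 (SE), adjusted p = 0.0122) and Mcm6 fell (105 and 75.6 against 149, 163 and 143 CPM, log2 change -0.63 ± 0.15 (SE), adjusted p = 0.0293), both replication factors. Those calls were lost without any cNK library as well (adjusted p = 0.0691 to 0.0739 and 0.0962 to 0.125). Of the list, 2 rose and 5 fell with DESeq2, beside 3631 and 3149 of all 17795 genes tested. With LrNK libraries 2 and 3 kept apart 1 rose and 4 fell, beside 3429 and 2952 of 16771. Mki67, the proliferation marker, did not pass, at 20.1 and 29.5 against 39.7, 48.3 and 53.3 CPM.

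MHC class I presentation genes rose in 7 of 16 and fell in 0, with a median of 0.39. With a cNK library left out 1 rose, and without LrNK library 1 11 rose and 1 fell. Calr, a chaperone of class I loading, was at 1125 and 1126 against 549.6, 506 and 512 CPM (log2 change 1.23 ± 0.10 (SE), adjusted p = 0.00129). Tap2, a peptide transporter chain, was at 219.8 and 224 against 157, 154 and 157 CPM (log2 change 0.63 ± 0.09 (SE), adjusted p = 0.00743), a call lost without any cNK library (adjusted p = 0.0623 to 0.0662). Of 8 GIMAP GTPases, which support lymphocyte survival, 4 fell and 1 rose, and without a cNK library 1 fell and 0 rose, while 3 rose without LrNK library 1. Gimap8 was at 283 and 247 against 612, 623 and 679 CPM (log2 change -1.14 ± 0.10 (SE), adjusted p = 0.00162), and Gimap4 at 861 and 783 against 1317, 1283 and 1325 CPM (log2 change -0.55 ± 0.09 (SE), adjusted p = 0.0116), the latter lost without any cNK library (0.072 to 0.0858).

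**Figure D5:**
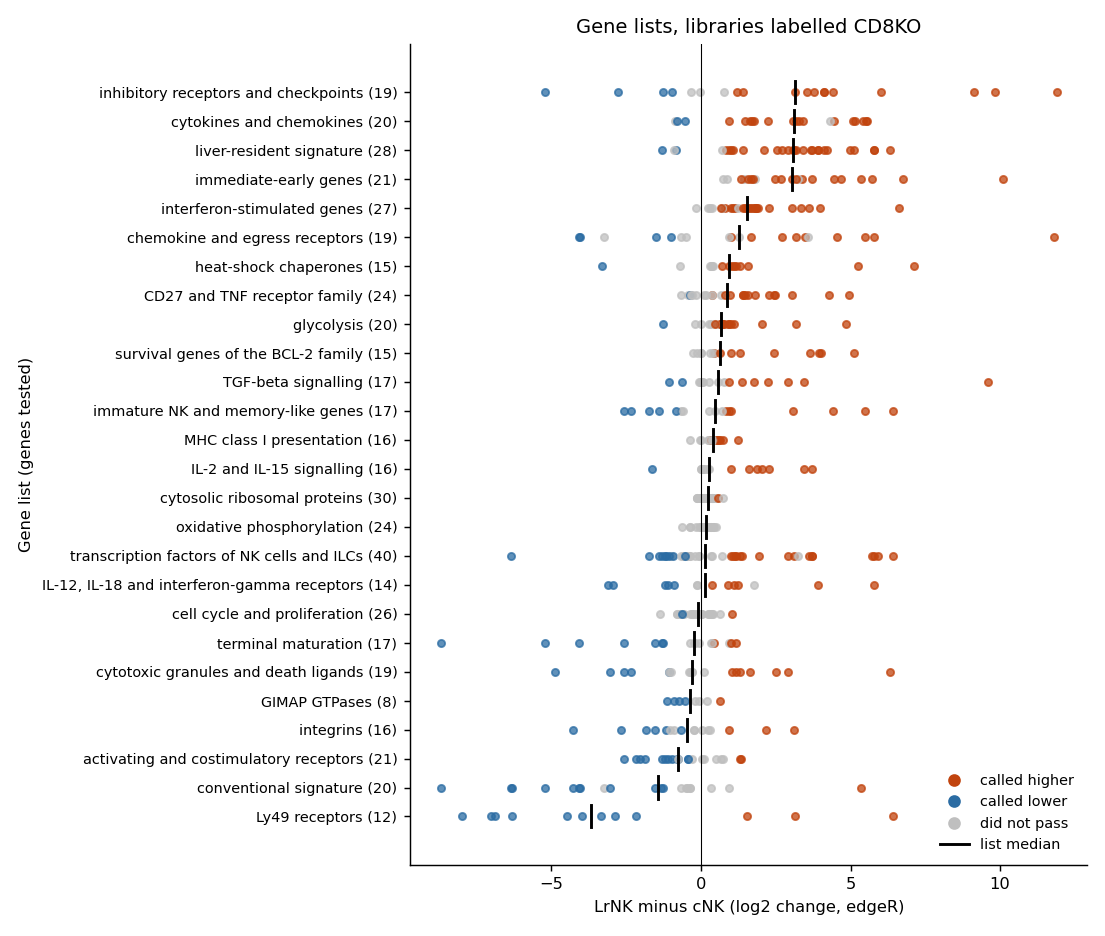
Log2 change of LrNK against cNK for each tested gene (points, coloured by call) of 26 gene lists, with the list's median as a black bar and the number of genes tested in brackets. Inhibitory receptors, cytokines, liver-resident and immediate-early genes have the highest medians, near 3, and Ly49 receptors the lowest at -3.66; the median of all genes tested is -0.05.

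Most of the 12 largest rises were genes known from cells other than NK cells. Trem2, a lipid receptor of macrophages, was at 29.3 and 9.02 against 0, 0 and 0 CPM (at least 819-fold higher), and Mgl2, a lectin of macrophages and dendritic cells, at 28.1 and 11.1 against 0, 0 and 0 CPM (at least 881-fold). Alb was at least 1256-fold higher, and Bhmt, a liver enzyme of methionine synthesis, at 20.9 and 6.53 against 0, 0 and 0 CPM, at least 587-fold. F13a1, a clotting factor chain of monocytes and platelets, was at 272 and 26.8 against 0, 0 and 0.0349 CPM, with 2 counts in cNK and a ratio of total counts of 8040 (95% counting interval 2225 to 66400). Its log2 change was 11.05 without LrNK library 1 and 16.09 without cNK library 3, where the call was lost (adjusted p = 0.0595).

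F10, clotting factor X, was at 58.5 and 47.5 against 0, 0.0168 and 0 CPM, with 1 cNK count and a ratio of 8383 (interval 1504 to 331200), and 14.62 on the log2 scale without cNK library 2. Ace, angiotensin-converting enzyme, was at 566 and 232 against 0.0823, 0.0335 and 0.0349 CPM (log2 change 13.04 ± 0.59 (SE), adjusted p = 0.000267). Slfn4, a myeloid gene of the Schlafen family, was at 17.9 and 9.09 against 0, 0 and 0 CPM, and Ptgir, the prostacyclin receptor, at 29.2 and 4.96 against 0, 0 and 0 CPM; they were at least 641 and 658-fold higher. Arhgef37 (67.9 and 18.3 against 0, 0 and 0 CPM) and Ldlrad3 (41.5 and 17.8 against 0, 0 and 0 CPM) complete the 12, at least 1793 and 1357-fold higher.

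The fitted log2 changes of Ptgir, Arhgef37, Trem2, Bhmt, Ace and Mgl2 were 12.98, 14.32, 13.16, 12.67, 13.04 and 13.19. Without LrNK library 1 they were smaller, at 11.41, 13.29, 12.28, 11.81, 12.33 and 12.57. That of Cxcl2 was larger, at 17.57 against 16.75 with all libraries. All of these genes but Ace had no cNK count, so the fit does not measure the size of their change. The fit without LrNK library 1 holds 1 LrNK sample.

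The 12 largest falls held genes of cNK that were nearly silent in LrNK, Cma1, Klra4 and Klra8 among them. Clip4, a microtubule-binding protein gene (chr17:71768473-71864273), was at 0 and 0 CPM in the LrNK samples against 15.8, 16.7 and 15.9 CPM in the cNK libraries. It had no count in any LrNK library and was at least 675-fold lower, with an adjusted p of 0.000372. Its relative Clip3 was at 0 and 0.0224 against 7.2, 6.25 and 7.39 CPM, on 2 LrNK counts, with a ratio of 0.0023 (interval 0.000279 to 0.00834).

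Rhpn1 was at 0 and 0.0224 against 18.5, 23 and 26.1 CPM, and Dpysl5, of a family of axon guidance proteins, at 0 and 0.0224 against 8.7, 9.2 and 8.68 CPM. Each had 2 LrNK counts, with ratios of 0.000701 (8.49e-05 to 0.00253) and 0.0018 (0.000218 to 0.00651). Klhl30, a Kelch family gene, was at 0 and 0.134 against 46, 50.7 and 54.3 CPM (log2 change -8.93 ± 0.58 (SE), adjusted p = 0.000675), and Cdh22, a cadherin, at 0 and 0.134 against 38.4, 36.7 and 37.9 CPM (log2 change -8.52 ± 0.61 (SE), adjusted p = 0.000851). Khdc1c (chr1:21368331-21370845) and Khdc1b (chr1:21383556-21386373), neighbouring and related genes, were at 0 and 0.101 against 21, 20.2 and 21.2 CPM and 0 and 0.145 against 19.6, 17.1 and 19.1 CPM. Cym, the chymosin gene, was at 0 and 0.101 against 10.6, 12.3 and 11.3 CPM (log2 change -7.26 ± 0.78 (SE), adjusted p = 0.00264).

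With so few LrNK counts the fitted changes of these genes moved with single libraries. Without LrNK library 1 they were -8.04 for Cma1, -6.82 for Khdc1b and -6.63 for Cym, and without library 2 -11.36 for Clip3 and -12.95 for Khdc1c. Without library 3 they were -11.75 for Dpysl5, -13.09 for Rhpn1, -9.55 for Klhl30 and -8.43 for Khdc1b. All stayed called. With voom, the calls of Rhpn1, Clip3, Khdc1b and Cym were lost (adjusted p = 0.105, 0.0676, 0.0543 and 0.0621).

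The same contrast in WT was set beside these values through a model of all 4 groups. The difference of the LrNK against cNK contrast between the labels was tested in 19287 genes, of which 8 were called (0.0415%), 1 higher and 7 lower in the CD8KO-labelled libraries, and 1628 had an unadjusted p under 0.05. DESeq2 called 337, and the count was 55 without LrNK WT library 3, 16 without LrNK WT library 1 and 5 without any of the cNK libraries. Of the 4446 genes called in the CD8KO-labelled libraries and tested in WT alone, 96.4% had the same sign there, against 78.6% of all 16202 genes tested in both. The CD8KO and WT contrasts share no library. The X-inactivation transcript Xist was at 0.0291 to 1.90 CPM in the WT libraries and at 94.9 to 136 in the CD8KO-labelled LrNK libraries. The Y-linked Kdm5d was at 27.8 to 79.9 CPM in the WT libraries and at 19.5 to 22.8 in the CD8KO-labelled LrNK libraries. The labels do not give the sex, so in LrNK it cannot be told apart from the CD8KO label in this difference.

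Cd8a had the largest difference of the 8 genes called. It was at 41.6, 42.6 and 45.1 CPM in the CD8KO-labelled LrNK libraries, 87.3, 85.9 and 109 in CD8KO-labelled cNK, 20.5, 18.5, 20.5 and 22.4 in LrNK WT and 0.568, 0.578 and 0.561 in cNK WT. LrNK were thus lower than cNK in the CD8KO-labelled libraries and higher in WT, with log2 changes of -1.03 in the CD8KO-labelled libraries and 5.21 in WT, a difference of -6.25 ± 0.21 (SE), adjusted p = 4.58e-07. Cd3g was at 179, 179.5 and 176 CPM in the CD8KO-labelled LrNK libraries, 17.8, 23.3 and 18.7 in CD8KO-labelled cNK, 538, 537, 620.5 and 548 in LrNK WT and 12.2, 13.7 and 11.8 in cNK WT. Its rise in LrNK was smaller where the label is CD8KO, with a difference of -2.28 ± 0.19 (SE), adjusted p = 0.00149, and all LrNK libraries of that label lay under all LrNK WT libraries.

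Gzma was at 909, 1071 and 1077 CPM in the CD8KO-labelled LrNK libraries, 5717, 5345 and 5508 in CD8KO-labelled cNK, 3294, 3768, 3043 and 3825 in LrNK WT and 4917, 5450 and 4650 in cNK WT. The groups of LrNK did not overlap, and the contrast was -2.37 in the CD8KO-labelled libraries and -0.51 in WT, a difference of -1.86 ± 0.22 (SE), adjusted p = 0.0179. This call was lost without LrNK CD8KO library 1 and without any of the 6 cNK libraries (adjusted p = 0.0872 to 0.151). Klra9, the inhibitory Ly49I, was at 29.8, 30.6 and 27.9 CPM in the CD8KO-labelled LrNK libraries, 343, 313 and 331 in CD8KO-labelled cNK, 134, 127, 129 and 138 in LrNK WT and 429.5, 449.8 and 434 in cNK WT, a difference of -1.69 ± 0.14 (SE), adjusted p = 0.00149. With voom the calls of Klra9, Klri2 and Htra3 were lost (adjusted p = 0.0732, 0.209 and 0.127).

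Klra5 was at 38, 27 and 27.9 CPM in the CD8KO-labelled LrNK libraries, 11.7, 13.2 and 11.8 in CD8KO-labelled cNK, 126, 143, 124 and 153 in LrNK WT and 11.2, 11.7 and 11.4 in cNK WT (difference -2.08 ± 0.22 (SE), adjusted p = 0.00639). Its rise in LrNK was smaller in the CD8KO-labelled libraries. Klri2 was at 88.2, 83 and 84 CPM in the CD8KO-labelled LrNK libraries, 617, 603 and 676 in CD8KO-labelled cNK, 221, 186, 198 and 198 in LrNK WT and 697, 656 and 698 in cNK WT (difference -1.08 ± 0.14 (SE), adjusted p = 0.0321), a call lost without the same 7 libraries (adjusted p = 0.0978 to 0.177) and with no filter on low counts (0.0608).

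Bach1, a haem-regulated repressor, was the gene with a larger rise under the CD8KO label. It was at 174, 166 and 159 CPM in the CD8KO-labelled LrNK libraries, 48.4, 54.7 and 56.3 in CD8KO-labelled cNK, 61.4, 55.9, 63.9 and 63.9 in LrNK WT and 53.6, 52.2 and 51.2 in cNK WT, with contrasts of 1.77 in the CD8KO-labelled libraries and 0.29 in WT and a difference of 1.48 ± 0.14 (SE), adjusted p = 0.0031. Htra3, a secreted protease that binds TGF-beta, was chosen after its values were seen, as the remaining gene called. It was at 6.85, 6.36 and 5.89 CPM in the CD8KO-labelled LrNK libraries, 0.885, 1.12 and 0.786 in CD8KO-labelled cNK, 39.1, 41.2, 68.8 and 36.5 in LrNK WT and 0.772, 0.633 and 0.878 in cNK WT (difference -3.16 ± 0.40 (SE), adjusted p = 0.031), a call lost without the same 7 libraries (0.0836 to 0.151).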

How the data were processed

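RNA of sorted NK cells was sequenced after TruSeq preparation from 1 ug of total RNA, per the labels' protocols. The authors deposited 1 file of raw counts per library, with the same 54532 Ensembl identifiers in each. Reads were aligned with HISAT2 2.1.0 to GRCm38, per the submitters' processing notes. How they were counted, with which annotation and strand setting, was not given in the sources used here. Reads of genes that overlap or lie antisense to each other may therefore be mixed, and near copies (Klra, Hspa1a and Hspa1b, globins, Bcl2a1) may share reads. Symbols and GRCm38 coordinates came from GENCODE M21 for 54495 identifiers. Of the counts from 1 to 20, 55.8 to 64.5% were even in these libraries, and nothing was done about it.

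Groups came from the labels. LrNK CD8KO libraries 2 and 3 were summed, as were LrNK WT libraries 2 and 4. Genes were tested with edgeR 4.0.16 in R 4.3.3 (TMM scaling, filterByExpr with a minimum count of 10 and total of 15, quasi-likelihood test of 1 mean per group), with Benjamini-Hochberg adjustment over all genes tested and calls under 0.05. The 6 CD8KO-labelled libraries were fitted alone, and the difference from WT with all 4 groups. Standard errors are those implied by the test's F. On simulated counts with 1 spread in both groups, set well below the 42% of the reported fit, the test called few unchanged genes. Where every gene varied more in LrNK than in cNK, and part of them far more, it called more unchanged genes than changed ones. With every gene at the spread measured within its own group, it called none of the changed ones. The measured spread was wider in LrNK, so the adjusted p-values are less reliable than their size implies. CPM are computed from the counts and unscaled, and log2 changes per sample use a prior count of 2. Intervals are exact binomial at 95% and, like the floor of 3 counts over a group, cover counting error only. They treat each count as independent. Even counts were in excess, so this may not hold and the intervals may be too narrow.

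Genes were named by rule: the 12 largest rises and falls among genes that passed, had a mean level of 2 or more in log2 CPM and did not overlap between the groups (predicted genes, non-coding genes and antigen receptor segments left out), the 2 genes of smallest p in each of 37 lists, the markers, and the 5 smallest p of the difference. Other list members with values were chosen after their values were seen. Some genes that the rule or the lists name are not reported here. The members and lists were chosen with earlier results of these data known. Promoters came from RefSeq (GRCm38.p6); of the named genes called, 81 of 104 had one. Alternatives were scaling, filters, DESeq2 1.42.0, voom of limma 3.58.1, libraries kept apart, a replicate block, all 4 groups, other-cell genes removed and each library left out; setting LrNK library 1 alone against cNK was added after seeing the data.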

Additional observations from a re-analysis of the deposited data

Results flagged for a closer look

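The contrast of LrNK against cNK differed between the labels in 8 genes by the test of the difference itself, edgeR's interaction term over all 4 groups. The differences (CD8KO-labelled minus WT, log2) were -6.245 for Cd8a, -2.282 for Cd3g, -1.693 for Klra9, -2.076 for Klra5, -1.861 for Gzma, -1.08 for Klri2, -3.162 for Htra3 and 1.481 for Bach1. The groups labelled CD8KO have too few samples for a search for single outlying samples.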

How the results depend on the processing

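Counts of called genes moved between settings. Genes higher in LrNK numbered 1116 to 5742 and genes lower 572 to 5130 when libraries were left out in turn, with LrNK library 1 alone against cNK at 5368 and 7636. The count of lower genes was 3149 with DESeq2 and 1080 with voom. The difference between the labels had 68 genes with LrNK libraries kept apart, 337 with DESeq2 and 5 to 55 with a library left out. All other settings stayed within 1.5 times of these 3 counts, and no called gene changed sign in any setting. The cause was not tested, beyond the fewer samples in some fits. Correlations of deviations between same-numbered libraries were -0.00625 to 0.00738. LrNK libraries 2 and 3 agree closely, so their deviations mostly set them against library 1. These correlations therefore cannot decide whether the replicate numbers pair the samples. With the replicate block and libraries kept apart, 2390 genes were higher, 2040 lower and 9 differed between the labels. Among named genes the call of Sparc was then lost (adjusted p = 0.0786). Signs turned for 4 genes that had not passed in the reported fit: Tbx21 (0.1165 with libraries kept apart, -0.09996 to 0.4514 with a library left out), Cd8b1 (-6.045 with library 1 alone), Xist (0.03885 with the block, 1.624 with voom) and Kdm5d (0.03176 with the block, 0.2122 with voom, -1.296 to 0.1009 with a library left out). With LrNK library 1 alone against cNK, the median log2 change was -0.08 for transcription factors and -0.45 for B cell genes. In the reported fit these medians were 0.14 and 2.61. The median of the IL-12 and IL-18 list was -0.08 with a minimum count of 50. Of 104 named genes called, 28 moved over 1.5-fold when some library was left out, 21 of them without LrNK library 1. Genes at or near 0 in a group are limited by the floor of 3 counts, and 2 LrNK samples limit every p-value. Fits without LrNK library 1, or with it alone, hold 1 LrNK sample, so their calls rest on the spread of cNK.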

Other observations

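Mitochondrial ribosomal RNAs, noticed after the values were seen, were lower in LrNK. The small subunit RNA mt-Rnr1 was at 10.2 and 9.11 CPM in the LrNK samples against 114, 106 and 104 CPM in the cNK libraries (log2 change -3.36, adjusted p = 0.00015), and the large subunit RNA mt-Rnr2 at 50.1 and 11.1 against 312, 317 and 296 CPM (-3.25, adjusted p = 0.017). Mitochondrial messenger RNAs had other values. Of these, mt-Co1 (5216 and 4103 against 4524, 4497 and 4301 CPM), mt-Nd1 (869 and 1124 against 909, 953 and 922 CPM) and mt-Cytb (1394 and 1527 against 1258, 1211 and 1419.8 CPM) did not pass, and mt-Co2 (91.9 and 82.2 against 43.4, 43.8 and 40.03 CPM), mt-Atp6 and mt-Co3 rose.

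The X-inactivation transcript Xist was at 94.9 and 134 CPM in LrNK and at 0.247, 265 and 815 CPM in the cNK libraries. The Y-linked Kdm5d was at 22.8 and 19.7 CPM in LrNK and at 71.6, 40.9 and 1.87 in cNK. Both were above 15 CPM in the LrNK samples and in cNK library 2, and 1 of them was below 2 CPM in cNK libraries 1 and 3. In the WT libraries Xist was at 0.0291 to 1.90 CPM and Kdm5d at 27.8 to 79.9 CPM.

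Of the genes tested, 3259 had no count in LrNK library 1, and 1872 of these had at least 10 counts in each of LrNK libraries 2 and 3.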
